A study of Mus musculus with 6 samples.

Results

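The genes described here are the 5 NF-κB subunits (Nfkb1, Nfkb2, Rel, Rela and Relb), 3 classical inhibitors of NF-κB (Nfkbia, Nfkbib and Nfkbie) and 2 atypical ones (Nfkbiz and Bcl3). They were taken by symbol from a table of 41549 genes, and all 10 were found and passed the filter on low counts. The cells were mouse bone marrow-derived macrophages (Mφs) from wild-type mice, grown with macrophage colony-stimulating factor. In the Ctr group they had been transfected with a control antisense oligonucleotide, and in the αGlu group with an antisense oligonucleotide against 5′tRF-Glu(CTC), a small RNA cut from the 5′ part of tRNA-Glu(CTC). Both groups were transfected with the same lipid reagent and then given IL-4 plus IL-13 for M2 polarization, and each had 3 libraries. Cells were transfected in bulk and not sorted, and the mRNA libraries do not measure the fragment. The study measured it by qPCR in Mφs transfected this way, but those values carry no link to these libraries and were not used here.

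The oligonucleotide that separates the groups is shown with its target, both 5′ to 3′. Capitals in the target mark bases 2 to 21 of 21, which are the perfect complement of the antisense.
antisense: taaccactagaccaccaggg
target: tCCCTGGTGGTCTAGTGGTTA

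NF-κB is a family of transcription factors that act as dimers. Rela, Rel and Relb carry a transactivation domain, while Nfkb1 and Nfkb2 encode the precursors p105 and p100, which are processed to the DNA-binding subunits p50 and p52. In resting cells the classical inhibitors hold dimers in the cytoplasm. Stimuli such as Toll-like receptor ligands, TNF and IL-1 activate the IκB kinase complex, the inhibitors are phosphorylated and degraded, and the dimers enter the nucleus. Several genes of the system are themselves targets of NF-κB, among them Nfkbia, Nfkbie, Nfkb2, Relb, Nfkbiz and Bcl3, which gives the pathway negative feedback and later waves of regulation. The atypical inhibitors are nuclear and bind mainly p50 or p52 dimers, and can raise or lower transcription. In Mφs the system is best known for driving the inflammatory response to microbial products.

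Promoters of members are shown because binding sites for NF-κB upstream of these genes are textbook examples of feedback. RefSeq promoter sequences (build GRCm38.p6) were at hand for 7 of the 10 members, other than Nfkb1, Relb and Nfkbiz. The 250 bases before each annotated start were searched on both strands for the κB consensus GGGRNWYYCC, which is 10 letters long. In it R is A or G, Y is C or T, W is A or T, and N is any base. Of all 32851 promoters, 3.9% held a match. Among the members, 6 of 9 promoters did (Nfkb2 has 3 starts), and these belonged to 4 of the 7 genes, Nfkbia, Nfkbie, Nfkb2 and Rel. None was found in these windows of Rela, Nfkbib or Bcl3. In the sequences below, on the strand of the gene and ending 1 base before its start, capitals mark the matches. Bcl3 is shown as a member with none.
Nfkbia (chr12:55492648-55492897, minus strand): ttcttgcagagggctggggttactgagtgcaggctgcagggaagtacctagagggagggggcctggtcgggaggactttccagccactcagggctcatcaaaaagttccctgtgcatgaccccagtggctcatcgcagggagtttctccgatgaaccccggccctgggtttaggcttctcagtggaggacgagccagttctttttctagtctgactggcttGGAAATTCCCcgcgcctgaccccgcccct
Nfkbie (chr17:45555450-45555699, plus strand): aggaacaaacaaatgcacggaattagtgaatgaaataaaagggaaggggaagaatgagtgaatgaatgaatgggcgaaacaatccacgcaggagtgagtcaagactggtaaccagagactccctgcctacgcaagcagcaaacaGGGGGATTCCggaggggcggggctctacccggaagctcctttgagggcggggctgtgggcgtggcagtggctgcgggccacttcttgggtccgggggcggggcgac
Nfkb2 (chr19:46304487-46304736, plus strand): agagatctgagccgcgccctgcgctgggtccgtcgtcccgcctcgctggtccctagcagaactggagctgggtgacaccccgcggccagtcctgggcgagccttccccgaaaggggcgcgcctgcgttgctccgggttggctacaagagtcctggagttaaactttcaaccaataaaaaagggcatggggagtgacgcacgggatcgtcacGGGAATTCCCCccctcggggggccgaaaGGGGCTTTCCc
Rel (chr11:23770970-23771219, minus strand): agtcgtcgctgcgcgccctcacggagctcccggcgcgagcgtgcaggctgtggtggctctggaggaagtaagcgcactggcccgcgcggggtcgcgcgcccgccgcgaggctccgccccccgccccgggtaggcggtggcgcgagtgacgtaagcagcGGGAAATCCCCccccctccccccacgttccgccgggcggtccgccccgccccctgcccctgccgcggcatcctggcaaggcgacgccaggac
Bcl3 (chr7:19822756-19823005, minus strand): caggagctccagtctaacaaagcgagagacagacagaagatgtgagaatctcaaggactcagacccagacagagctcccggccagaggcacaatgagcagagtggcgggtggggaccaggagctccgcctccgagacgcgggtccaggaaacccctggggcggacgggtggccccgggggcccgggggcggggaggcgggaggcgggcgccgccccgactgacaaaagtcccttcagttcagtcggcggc
The capitals in Nfkb2 cover 4 matches and those in Rel 3, since the consensus can overlap itself on both strands. A match describes letters and is not evidence of binding.

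Total counts ranged from 17912831 to 30386653 per library. The αGlu libraries were not alike. Across the 11933 genes tested, Pearson's r of log2 CPM (counts per 1000000 reads of a library size adjusted by TMM factors) was 0.992 between αGlu 2 and αGlu 3 and 0.929 between αGlu 1 and either of them, whereas αGlu 1 reached 0.966 to 0.982 with Ctr. Such values run over genes, and genes are no replicates. Fold changes of the members are therefore given with and without αGlu 1. All 8 macrophage markers listed were above 1 CPM on average, with Csf1r at 2400 to 3055 CPM in every library. Their levels were not constant. In αGlu 2 and 3, Cd68 and Mertk lay below every Ctr library, and the others of this list above. Cd14 was at 17.3 to 30.1 CPM in Ctr, 12.4 CPM in αGlu 1, and 293 and 240 CPM in αGlu 2 and 3. Cd68 was at 1809 to 2063 CPM in Ctr, 1990 CPM in αGlu 1, and 1237 and 1144 CPM in αGlu 2 and 3. Of the IL-4/IL-13 markers, Chil3 was at 1479 to 3529 CPM, and the groups overlapped for it. Mrc1 was at 948, 771 and 898 CPM in Ctr and 840, 1513 and 2379 CPM in αGlu. Ccl17 stayed below 1 CPM in all 6, at 0.293 to 0.954 CPM in Ctr and at most 0.126 CPM in αGlu. Genes of this list other than Chil3 differed between αGlu 2 and 3 and Ctr, in both directions. Retnla was at 245 to 540 CPM in Ctr, 101 CPM in αGlu 1, and 0.0315 and 0.0367 CPM in αGlu 2 and 3, and Ccl22 was at 9.57 to 13 CPM in Ctr against 2.47, 1.61 and 0.99 CPM in αGlu. Arg1 was at 24.3 to 45.2 CPM in Ctr, 23.5 CPM in αGlu 1, and 1886 and 1792 CPM in αGlu 2 and 3, and Ccl24 was at 0.636 CPM or less in Ctr and αGlu 1 and at 9.07 and 16.2 CPM in αGlu 2 and 3. The neutrophil list summed to 106 to 160 CPM in Ctr, and to 186, 539 and 609 CPM in the αGlu libraries. Csf3r, which Mφs also express, made up nearly all of it, 3 of its 8 genes averaged above 1 CPM, and Ly6g had 0 reads. Lymphocyte, dendritic cell, fibroblast and mast cell lists had 0 genes averaging above 1 CPM, and their summed levels did not exceed 3.79 CPM in any library. Whether other cells have a part in the results was not tested.

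Blockade of 5′tRF-Glu(CTC) was compared with Ctr to ask which members of the system differ. In αGlu 2 and αGlu 3 the inhibitors Nfkbia, Nfkbie, Nfkbiz and Bcl3 and the subunits Nfkb2 and Relb stood from 3.74 to 13 times the Ctr mean, on the CPM scale. Nfkb1 stood at 1.59 and 1.64 times, Rela and Nfkbib at 1.10 to 1.34 times, and Rel at 0.706 and 0.683 times. In αGlu 1 all 10 lay between 0.751 and 1.33 times the Ctr mean. In bulk RNA, a change in all cells and a larger change in some of them cannot be told apart. With all 6 libraries, edgeR's quasi-likelihood test called 0 members with the threshold set at a Benjamini-Hochberg adjusted p of 0.1 and a 2-fold difference (1 on the log2 scale), and 0% of all 11933 genes were called. At an unadjusted p under 0.05 there were 8 members, all higher in αGlu, against 24.7% of all genes, or 12.7% counting higher genes and 11.9% counting lower genes alone. αGlu 2 and 3 both lay outside the Ctr range on the same side for 65.8% of all genes, so such a split was common. The median log2 fold change was 1.60 over the 10 members and 0.02 over all genes.

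Without αGlu 1 the same test called 6 members, Nfkb2, Relb, Nfkbia, Nfkbie, Nfkbiz and Bcl3, all higher in αGlu. Here 18.6% of 12340 genes were called, and 8.05% were called higher. At the adjusted p alone, without the fold limit, 9 members passed (Nfkbib did not), against 49.1% of all genes, and Rel was the member that was lower. DESeq2 on all 6 libraries called 6 members as well, and they were the same 6, with 8.16% of 13707 genes called and 4.23% called higher. Limma-voom on all 6 libraries called 0. The call on the members thus depended on αGlu 1 and on the test. αGlu 1 was singled out because it resembled Ctr in these same data. Fold changes and adjusted p-values without it, here and below, follow that choice and are a description.

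**Figure D1:**
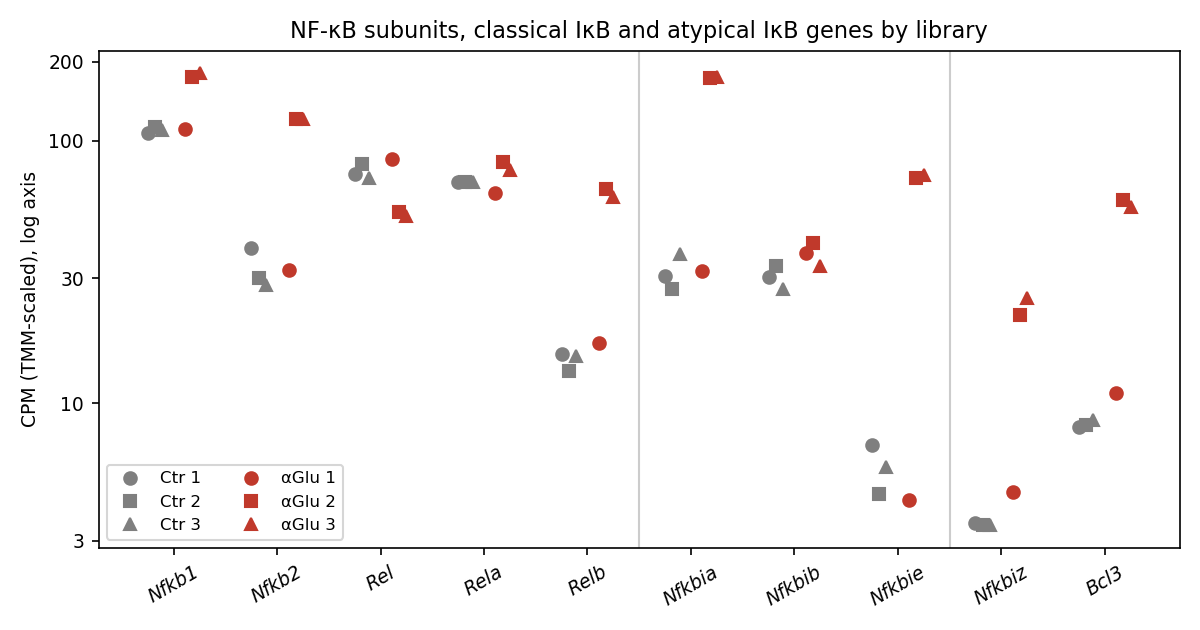
Level of each of the 10 genes in each library, in CPM scaled by TMM factors on a log axis; gray marks are Ctr and red marks αGlu, with the circle, square and triangle for libraries 1, 2 and 3. The red squares and triangles stand apart from the rest for Nfkbia, Nfkbie, Nfkb2, Relb, Nfkbiz and Bcl3, whereas the red circle (αGlu 1) lies near the gray marks throughout.

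Among the classical inhibitors, Nfkbia (ENSMUSG00000021025, chr12:55489410-55492647, GRCm38) encodes IκBα, the fast inhibitor that ends an NF-κB response. Its level was 30.7, 27.2 and 37.1 CPM in Ctr 1, 2 and 3 and 31.9, 174 and 176 CPM in αGlu 1, 2 and 3. αGlu 1 lay inside the Ctr range, and the other αGlu libraries were far above it and close to each other. The fitted log2 fold change was 2.01 ± 0.62 (± SE here and below, adjusted p 0.161 by edgeR) with all libraries and 2.46 ± 0.13 without αGlu 1 (adjusted p 6.33e-05). Its promoter, shown above, holds 1 κB match, which starts 29 bases before the start.

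Nfkbie (ENSMUSG00000023947, chr17:45555703-45563169) encodes IκBε, an inhibitor that is induced with a delay and binds Rela and Rel dimers. It was scarce in Ctr, at 6.95, 4.51 and 5.71 CPM from 153, 108 and 123 reads. In αGlu 1 it was at 4.3 CPM from 75 reads, below every Ctr library, and in αGlu 2 and 3 at 72.4 and 74.4 CPM. This was the largest ratio among the 10 members, 12.6 and 13 times the Ctr mean in those libraries. On the log2 scale the fold change was 3.14 ± 0.97 (adjusted p 0.161) with all libraries and 3.68 ± 0.16 (adjusted p 3.13e-05) without αGlu 1.

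Nfkbib (ENSMUSG00000030595, chr7:28758251-28767512) encodes IκBβ, which is generally not under NF-κB control. It was at 30.3, 33.4 and 27.3 CPM in Ctr and 37.6, 40.8 and 33.4 CPM in αGlu. All αGlu values were above the Ctr values, but αGlu 3 and Ctr 2 differed by less than the rounding. Its fitted log2 fold change was 0.30 ± 0.11 (adjusted p 0.187), and 0.29 ± 0.12 without αGlu 1 (adjusted p 0.109), so it was not called in either fit. It was the only member whose fold change did not grow when αGlu 1 was left out.

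The atypical inhibitors were both low in Ctr. Nfkbiz (ENSMUSG00000035356, chr16:55811375-55838899) encodes IκBζ, a nuclear co-activator needed for a subset of secondary inflammatory genes. Its level was 3.5, 3.43 and 3.43 CPM in Ctr, from 74 to 82 reads, and 4.59, 21.8 and 25.3 CPM in αGlu. On the log2 scale the difference was 2.32 ± 0.61 (adjusted p 0.156) and 2.76 ± 0.11 without αGlu 1 (adjusted p 2.8e-05).

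Bcl3 (ENSMUSG00000053175, chr7:19808462-19822770) encodes a nuclear partner of p50 and p52 dimers that limits inflammatory transcription in Mφs. It was at 8.13, 8.28 and 8.63 CPM in Ctr and 11.0, 59.8 and 55.9 CPM in αGlu. It had a log2 fold change of 2.34 ± 0.61 (adjusted p 0.156), and 2.79 ± 0.08 without αGlu 1 (adjusted p 8e-06). The groups did not overlap for Nfkbiz or Bcl3, since αGlu 1 was also above every Ctr library for them. For αGlu 1 the exact Poisson 95% interval was 3.64 to 5.71 CPM for Nfkbiz and 9.51 to 12.7 CPM for Bcl3, both above the highest Ctr value. These intervals cover counting error of that library only.

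Of the subunits, Nfkb2 and Relb belong to the alternative branch of the pathway, in which p100 is processed to p52 and pairs with Relb. Nfkb2 (ENSMUSG00000025225, chr19:46304320-46312385) was at 39.1, 30 and 28.3 CPM in Ctr, and in αGlu at 32.3, 121 and 121 CPM. αGlu 1 was inside the Ctr range. The log2 fold change was 1.5 ± 0.50 (adjusted p 0.168) and 1.90 ± 0.14 without αGlu 1 (adjusted p 0.000215).

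Relb (ENSMUSG00000002983, chr7:19606217-19629438) was at 15.5, 13.3 and 15.2 CPM in Ctr and 17, 65.5 and 61.1 CPM in αGlu, with no overlap between groups. The counting interval of αGlu 1 was 15.1 to 19.0 CPM and reached into the Ctr range. Its log2 fold change was 1.71 ± 0.49 (adjusted p 0.159), and 2.10 ± 0.09 without αGlu 1 (adjusted p 3.13e-05).

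The subunits of the canonical dimers had smaller fold changes. Nfkb1 (ENSMUSG00000028163, chr3:135584655-135691547) stood at 107, 113 and 110 CPM in Ctr and 111, 175 and 181 CPM in αGlu, and αGlu 1 was again inside the Ctr range. The log2 fold change was 0.50 ± 0.19 (adjusted p 0.19), and 0.69 ± 0.07 without αGlu 1. The adjusted p without that library was 0.000877, but the change was below the 2-fold limit for a call.

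Rela (ENSMUSG00000024927, chr19:5637483-5648130), the main transactivating partner of p50, showed the tightest Ctr values of all members, at 69.6, 70.0 and 69.6 CPM. In αGlu it was at 63.4, 83.3 and 77.6 CPM, so αGlu 1 was below and the other libraries above every Ctr library. The log2 fold change was 0.10 ± 0.11 (adjusted p 0.575) and 0.20 ± 0.07 without αGlu 1 (adjusted p 0.0645).

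Rel (ENSMUSG00000020275, chr11:23736847-23770970) encodes c-Rel, a subunit prominent in lymphocytes and activated myeloid cells. Its level was 74.8, 81.4 and 72.2 CPM in Ctr and 85.7, 53.8 and 52.0 CPM in αGlu. αGlu 1 was the highest of the 6 libraries and αGlu 2 and 3 the lowest. The log2 fold change was -0.26 ± 0.21 (adjusted p 0.444), and -0.53 ± 0.08 without αGlu 1 (adjusted p 0.00342), again below the fold limit. It was the only member with a negative fold change, and its promoter, shown above, also holds κB matches.

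**Figure D2:**
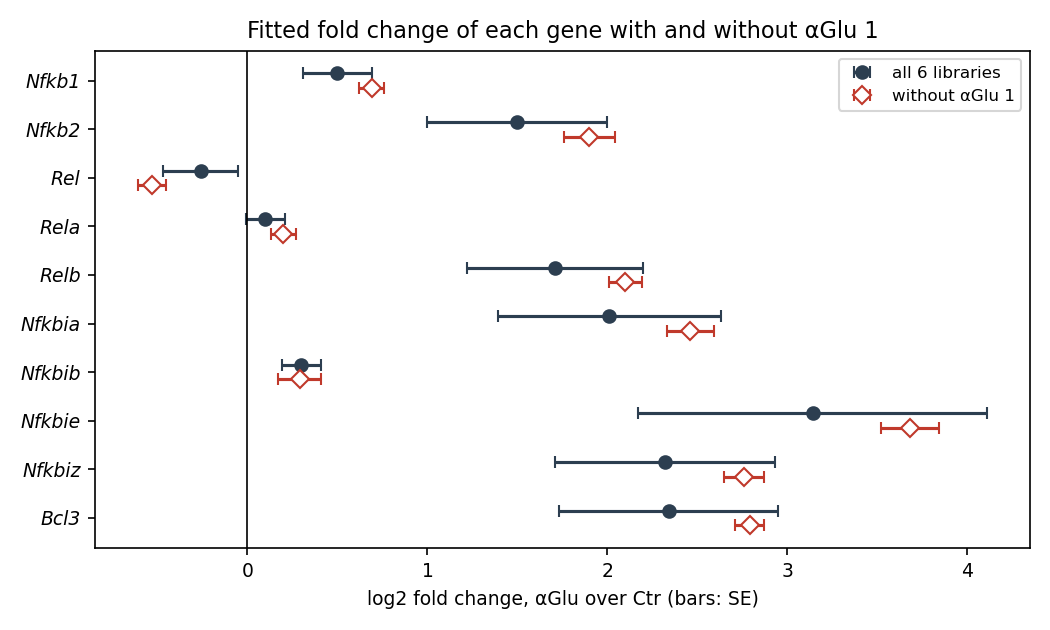
Fitted log2 fold change (αGlu over Ctr) of each gene with its SE as a bar, for all 6 libraries (filled circles) and without αGlu 1 (open diamonds). Leaving out αGlu 1 moved 9 of the 10 estimates away from 0 and shortened the bars of 9; for Nfkbie the SE went from 0.97 to 0.16.

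Taking the members without a model, the groups showed no overlap for 4 of them, Relb, Nfkbib, Nfkbiz and Bcl3, all higher in αGlu, against 30.2% of all genes in either direction and 14.2% in that direction. αGlu 1 was inside the Ctr range for 3 members, Nfkb1, Nfkb2 and Nfkbia, against 42.6% of all genes.

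Levels can be compared between genes only per exon length, for which the deposited TPM were used. In Ctr the order was Rela at 68.4 ± 1.09 TPM (SD, n = 3), Nfkbia at 59.3 ± 9.23, Nfkbib at 42.2 ± 4.17, Rel at 30.8 ± 1.78, Nfkb1 at 27.5 ± 0.294, Nfkb2 at 21.4 ± 4.23, Relb at 11.4 ± 1.06, Bcl3 at 10.2 ± 0.237, Nfkbie at 5.68 ± 1.31 and Nfkbiz at 2.08 ± 0.0609 TPM. Neighbours overlapped for Rela and Nfkbia and for Relb and Bcl3, and for no other pair. In αGlu 2 and 3 Nfkbia led with 346 and 359 TPM, followed by Nfkb2 (84.8 and 86.9 TPM) and Rela (86.8 and 83.0 TPM), which overlapped. Nfkbie, ninth in Ctr, came next with 76.2 and 80.3 TPM, and overlapped with Bcl3 at 77.4 and 74.3 TPM. Annotated exons of Nfkb1 span 12.1 kb, the most of the 10 genes, over 10 transcripts, so its TPM is low for its 1937 to 5550 reads per library.

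The make-up of the subunit pool is a description, since these are sums over chosen genes. Summed subunit mRNA was 166, 158 and 154 TPM in Ctr, 164 TPM in αGlu 1, and 295 and 294 TPM in αGlu 2 and 3. Rela made up 41.9% to 43.9% of it in Ctr, 39.1% in αGlu 1, and 29.4% and 28.3% in αGlu 2 and 3. Nfkb2 and Relb together thus took a greater part, with Nfkb2 at 12% to 15.8% in Ctr against 28.7% and 29.6%, and Relb at 6.48% to 7.6% against 18.3% and 17.6%. The share of Rel went from 18.5% to 20.6% in Ctr to 7.81% and 7.8% in those libraries, and was 21.8% in αGlu 1. In contrast, Nfkb1 kept between 15.7% and 17.7% in all 6 libraries.

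The mRNA of the inhibitors was also summed and set against that of the subunits. Classical inhibitors summed to 109, 101 and 112 TPM in Ctr, 120 TPM in αGlu 1, and 482 and 490 TPM in αGlu 2 and 3. Their ratio to the subunits was 0.654, 0.638 and 0.728 in Ctr, 0.732 in αGlu 1, and 1.63 and 1.67 in αGlu 2 and 3. The atypical pair had a ratio of 0.0737 to 0.081 in Ctr, 0.102 in αGlu 1 and 0.309 in both αGlu 2 and 3. Within the classical inhibitors, Nfkbib held 33.6% to 45.5% in Ctr, 44.9% in αGlu 1, and 12.5% and 10.3% in αGlu 2 and 3. Nfkbie went from 4.39% to 6.46% in Ctr to 15.8% and 16.4% in αGlu 2 and 3. These are mRNA levels, and the inhibitors are regulated mainly by degradation of the protein, which was not measured.

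**Figure D3:**
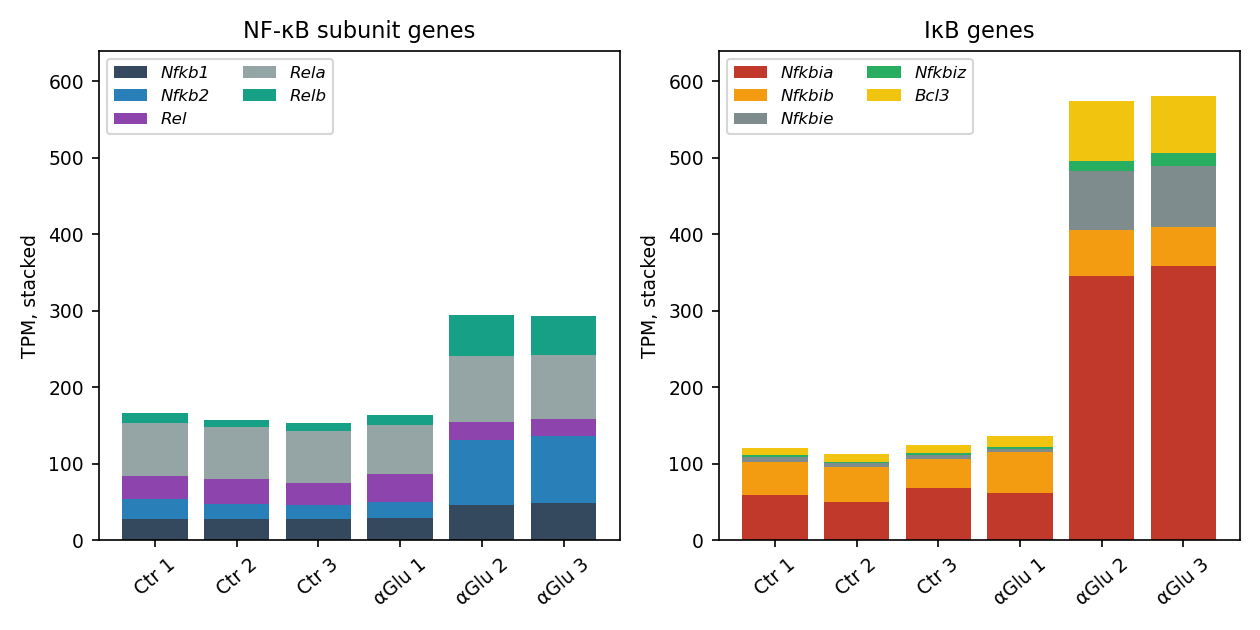
Stacked TPM of the 5 subunit genes (left) and the 5 inhibitor genes (right) in each library, on the same scale from 0. The bars of αGlu 1 are close in height to those of Ctr, and those of αGlu 2 and 3 reach 295 and 294 TPM for the subunits, with Nfkbia the greatest part of the inhibitors.

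The rest of the pathway was read from 6 lists written from general knowledge with 90 genes in the table, of which 83 were tested. With all libraries 0 of them were called, and 36 had an unadjusted p under 0.05, of which 32 were higher in αGlu, where all genes gave 24.7% and 12.7%. Without αGlu 1, 22 of these 83 genes were called, 21 of them higher. Of all 11933 genes tested with 6 libraries, 16.9% were then called, and 6.77% were called higher.

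Upstream of the inhibitors, all fold changes were below the 2-fold limit. The list of the IκB kinase complex and upstream kinases had 15 tested genes. It also holds Tab1, Tab2, Tab3, Nkiras1 and Nkiras2, which are not kinases. Its median log2 fold change was 0.12, and 0 genes were called with or without αGlu 1. Chuk, Ikbkb and Ikbkg, the 3 subunits of the complex, had log2 fold changes of 0.12 ± 0.07, 0.04 ± 0.08 and 0.20 ± 0.16. The groups did not overlap for 6 of the 15 genes, 5 of them higher and 1, Nkiras2, lower in αGlu. Of all genes 30.2% did not overlap, and 14.2% did not overlap and were higher. The genes with the smallest p, named next, are among the 5. Map3k14, the kinase that starts the alternative branch, was at 17.2, 19.5 and 18.2 CPM in Ctr and 24.3, 23.6 and 27.6 CPM in αGlu (log2 fold change 0.46 ± 0.10, adjusted p 0.152). Ikbke and Tbk1, the IKK-related kinases, had log2 fold changes of 0.42 ± 0.11 and 0.39 ± 0.12 (adjusted p 0.156 and 0.162). The largest of the list were those of Ripk2 and Nkiras2, at 0.56 ± 0.26 and -0.56 ± 0.19 (adjusted p 0.238 and 0.172). Without αGlu 1 they were 0.76 ± 0.20 and -0.79 ± 0.11. At the adjusted p alone, 7 of the 15 genes passed without αGlu 1, 6 of them higher, against 49.1% of all genes.

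The machinery that degrades phosphorylated IκB had a median of 0.07 over 10 genes, and 0 were called in either fit. Rbx1, a RING subunit of the ubiquitin ligase, had 0.33 ± 0.07 (adjusted p 0.156), and Usp15, a deubiquitinase, 0.29 ± 0.09 (adjusted p 0.16). Cul1, the scaffold of the ligase, had a log2 fold change of -0.13 ± 0.07 (adjusted p 0.267).

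Other nuclear regulators of NF-κB had a median of 0.06 over 17 genes and 0 calls in either fit. The smallest p of all pathway genes outside the inflammatory targets belonged to Nfkbid, which encodes IκBNS, another atypical inhibitor. Nfkbid was at 22.1, 21.6 and 19.7 CPM in Ctr, and in αGlu at 14.7, 13 and 12.8 CPM. All 3 αGlu libraries were lower than all Ctr libraries, αGlu 1 nearly as much as the others, whereas Nfkbiz and Bcl3 were higher in each. Its log2 fold change was -0.65 ± 0.10 (adjusted p 0.149) with all libraries and -0.72 ± 0.09 without αGlu 1 (adjusted p 0.00158). Hdac1, a histone deacetylase, and Commd1, which promotes removal of Rela from chromatin, had 0.58 ± 0.20 and 0.33 ± 0.10 (adjusted p 0.174 and 0.162).

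Feedback regulators that act through ubiquitin had a median of 0.34 over 18 genes. With all libraries 11 had an unadjusted p under 0.05, 9 of them higher in αGlu (12.7% of all genes). Without αGlu 1, 5 of 18 were called, all higher (6.77% of all genes in that direction and 16.9% in either), namely Traf1, Birc3, N4bp1, Tnfaip3 and Zc3h12a. Traf1, an adaptor of TNF receptors, was at 3.73, 5.81 and 4.32 CPM in Ctr, and in αGlu at 4.65, 72.8 and 62.5 CPM, with αGlu 1 inside the Ctr range. The fit gave 3.34 ± 0.95 on the log2 scale (adjusted p 0.159). Zc3h12a, a ribonuclease that degrades inflammatory mRNAs, and N4bp1, an inhibitor of NF-κB signalling, had 1.28 ± 0.37 and 1.52 ± 0.44 (adjusted p 0.159 for both).

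Inflammatory targets of NF-κB had a median of 2.10 over 20 tested genes of 23. Of these, 14 had an unadjusted p under 0.05, all higher in αGlu (12.7% of all genes). Without αGlu 1, 15 were called, 14 higher (6.77% of all genes) and Gadd45b lower. Ptgs2, the inducible cyclooxygenase, was at 2.86, 2.63 and 2.74 CPM in Ctr, and in αGlu at 4.01, 73.3 and 55.9 CPM (log2 fold change 4.02 ± 1.0, adjusted p 0.156). Cxcl10, an interferon-inducible chemokine, was at most at 0.371 CPM in Ctr, and in αGlu at 0.459, 7.43 and 5.13 CPM. No Ctr library reached the level of the low-count filter, so Cxcl10 was tested only through the αGlu libraries. It is among the 14 and the 15 genes counted above, and its p is not support for a difference. Il1b, also in both counts, passed the filter mainly through αGlu 2 and 3. It was at 0.454, 0.293 and 0.278 CPM in Ctr, and in αGlu at 0.0574, 322 and 345 CPM. Ccl5, a chemokine, was at 3.59, 7.86 and 13.5 CPM in Ctr, and in αGlu at 274, 1090 and 1031 CPM, so that αGlu 1 stood with the other αGlu libraries here (log2 fold change 6.59 ± 0.83, adjusted p 0.149).

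Genes that need IκBζ for their induction by microbial products were mostly too scarce to test, and 3 of 7 passed the filter. Lcn2, an iron-sequestering protein, was at 0.591, 0.543 and 0.557 CPM in Ctr, had 0 reads in αGlu 1, and was at 106 and 62.3 CPM in αGlu 2 and 3. The fit gave a log2 fold change of 6.63 ± 1.92 (adjusted p 0.159), and 7.20 ± 0.30 without αGlu 1 (adjusted p 2.91e-05). Cebpd and Edn1 had 1.37 ± 0.70 and -1.21 ± 0.55 (adjusted p 0.263 and 0.231). Without αGlu 1 they had 1.84 ± 0.28 and -1.03 ± 0.58 (adjusted p 0.00324 and 0.204). In that fit Lcn2 and Cebpd were called, 2 of the 3 tested, both higher (6.77% of all genes in that direction). Il6 had 6, 5 and 0 reads in Ctr and 5, 42 and 30 reads in αGlu, and did not pass the filter with all 6 libraries. Il12b, Csf2 and Csf3 had at most 3 reads in a library, and a difference in them was not detectable at this depth.

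**Figure D4:**
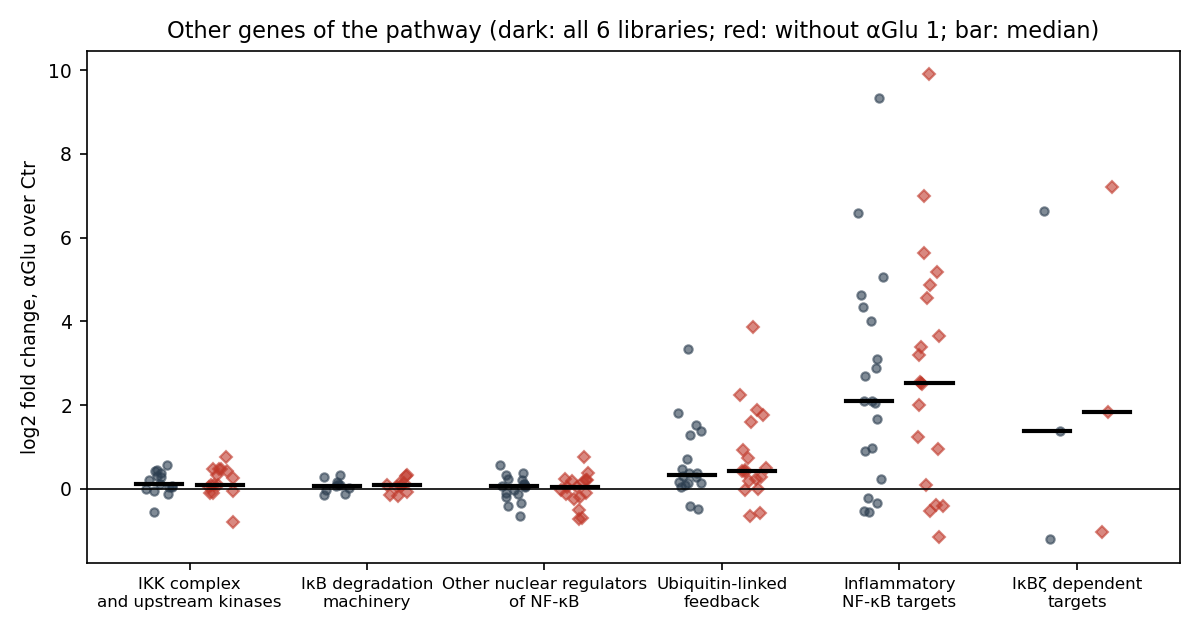
Log2 fold change (αGlu over Ctr) of each tested gene in the 6 pathway lists, with all libraries (dark circles) and without αGlu 1 (red diamonds); horizontal bars are medians. Medians of the first 3 lists stand at 0.12, 0.07 and 0.06 with all libraries, and those of the feedback and inflammatory lists at 0.34 and 2.10.

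Some genes followed single members closely over the 6 libraries. Among 8568 genes expressed at a mean log2 CPM of 3 or more, the highest Pearson correlations of log2 CPM with Nfkbia were found for Ing1 (0.9998), Rcl1 (0.9986), Tlr2 (0.9985), Vps36 (0.9983) and Cfp (0.9982). Ing1 was at 16.8, 15.9 and 18.5 CPM in Ctr and 17, 35.6 and 35.7 CPM in αGlu. With Nfkbiz they were found for Ddt (0.9997), Il4ra (0.9987), Ier3 (0.9986), Tmem8 (0.9983) and Pf4 (0.9982). Il4ra, which encodes the signalling chain of the IL-4 and IL-13 receptors, was at 62.7, 61.1 and 66.3 CPM in Ctr and 78.2, 510 and 643 CPM in αGlu, so αGlu 1 was slightly above Ctr, as it was for Nfkbiz. The 6 points share the same split of αGlu 2 and 3 from the other libraries, and 85 and 86 genes exceeded an r of 0.99 with Nfkbia and Nfkbiz. These values are therefore a description only.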

How the data were processed

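mRNA was measured in 3 Ctr and 3 αGlu libraries, prepared with a stranded kit from total RNA. Reads were processed by the authors in QIAGEN's RNA-seq Analysis Portal, and the submitters' processing notes name the build GRCm38. For the aligner, annotation, strand use in counting and multi-mapping reads, details are not given in the sources used here. Annotated genes on the opposite strand overlap Nfkb2, Nfkbib and Bcl3, and a gene on the same strand overlaps Nfkb1. The deposited counts are whole exon reads per gene, without normalization. The deposited TPM are such reads per exon length, scaled by the authors to 1000000 per library. Coordinates are from GENCODE M21 (GRCm38). The 1 row without a gene name was left out.

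The low-count filter was filterByExpr (edgeR 4.0.16, with 10 and 15 as its minimum and total counts), which left 11933 genes. A quasi-likelihood model with TMM factors and a group term alone was fitted in R 4.3.3, two-sided, with Benjamini-Hochberg adjustment over all genes. Each SE is the log2 fold change divided by the root of its F statistic. CPM are counts per TMM-adjusted library size, and log2 CPM have a prior count of 2. No 2 libraries agreed within sampling noise (chi-square per gene at least 20.1). The study states that replicates of primary cells are preparations from different animals, though the labels name no animal. Models were tested on simulated data. There the libraries of a group differed by noise alone, so a departure such as that of αGlu 1 was not tested. Alternatives were DESeq2 1.42.0, limma-voom (limma 3.58.1), other scaling and filters, the replicate number as a block, no fold limit, and each library left out.

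Members, lists and tests were chosen with earlier results of these data known. Named are all members, the 3 genes of each list with the smallest unadjusted p, and the 5 genes most correlated with Nfkbia and with Nfkbiz. The marker genes, Chuk, Ikbkb, Ikbkg, Birc3, Tnfaip3, Gadd45b, Il6, Il12b, Csf2 and Csf3 were named after their values were seen. So were Il1b, Cxcl1, Cxcl3, Ripk2, Tab1, Tab2, Tab3, Nkiras1 and Nkiras2.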

Additional observations from a re-analysis of the deposited data

How the results depend on the processing

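Calls depended on αGlu 1 and on the test. Over all genes, edgeR's quasi-likelihood test called 0 of 11933, and the fit with the replicate number as a block 17. DESeq2 called 1119 of 13707 genes with an adjusted p (8.16%). Leaving out 1 library gave 0 to 2290 calls, with 2290 only without αGlu 1 (18.6% of 12340 genes). Of the 10 members 0 were called, against 6 by DESeq2 and 0 to 6 when 1 library was left out, with 6 only without αGlu 1. These calls were all higher in αGlu, where 4.23% of all genes were called higher by DESeq2 and 8.05% without αGlu 1. Of the 83 pathway genes tested 0 were called, and 1 with the block (Ccl5). DESeq2 called 21 of 87 with an adjusted p, all higher in αGlu (4.23% of all genes in that direction). It was run without the low-count filter, so the 21 can include genes that did not pass it with all 6 libraries. Leaving out 1 library gave 0 to 25 calls, with 25 of 86 only without αGlu 1 (18.6% of all genes). These 25 include Cxcl1, Cxcl3 and Il6, which did not pass that filter with all 6 libraries. They passed it without αGlu 1 through αGlu 2 and 3, where they are high. Limma-voom, RLE factors, library size alone, other filters and no fold limit called 0 in all 3 sets. The cause of these shifts was not tested. No member changed sign under these alternatives. Over all members and alternatives, 118 fold changes stayed uncalled and 12 became calls. Rela came closest to 0, at 0.02 without αGlu 2. With library size alone, the median over all genes was 0.10 in place of 0.02.

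The replicate numbers are not said to pair libraries. Between libraries with the same number, the correlation of deviations from the group mean was 0.08, 0.06 and 0.15. Between libraries with different numbers it ran from -0.11 to 0.05. These values do not settle whether libraries were paired. For its qPCR of the fragment in transfected Mφs, the study used a paired test. The main fit has no pairing term, and the fit with the block has one. With the replicate block, adjusted p-values of the members lay between 0.159 and 0.597.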
